A study of Mus musculus with 2 samples.

Results

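CTCF sites at GC-rich promoters of single genes were described in newborn mouse lung. A site was taken when its summit lay within 1000 bp of a transcription start site (TSS) of protein-coding transcripts of exactly 1 gene, and when at least 60% of the bases within 500 bp of the summit were G or C. The rule used position and base composition but no measured signal. It selected 3574 of 64732 sites (5.52%, 95% Wilson interval 5.35 to 5.70%), at 3052 genes. They were 37.3% of the 9593 sites at promoters of single genes. The other sites were 6019 at promoters of single genes with a lower GC content (GC-poor sites below), 889 at promoters of 2 or more genes, and 54250 outside protein-coding promoters.

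The sites came from ChIP-seq with an antibody against CTCF on whole lung tissue of B6NCrl mice at postnatal day 0, in 1 group of 2 replicates. The labels give both replicates 1 biosample from 1 donor, whose sex was not collected, and their spread may therefore be technical. No second condition was analysed, so values were compared between classes of sites within the same 2 libraries. Sites of a library are not replicates of a condition, and no p-value is given. The deposited lists hold peaks and no read counts, so the depth is unknown, and peaks cannot show which of the lung's cell types was bound. Wilson intervals below cover counting error only. Signals are the authors' own values for each peak, whose scale differs between the pooled list and the list of a single replicate. A replicate's value at a site is that of its highest peak within 100 bp of the summit.

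Promoters rich in G and C commonly lie in CpG islands, stretches in which the CpG dinucleotide is frequent and usually unmethylated. They serve most housekeeping genes and many regulators of development. CTCF is a zinc finger protein that reads a long DNA motif, whose binding can be blocked by methylation of a CpG within it. Bound CTCF halts cohesin as it extrudes chromatin loops, and the direction of the motif decides from which side cohesin is halted.

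Sequences at some of the strongest sites are given first, and they do not stand for all sites of the class. A match to the motif under a peak does not measure what was bound. The runs below are from mm10 and hold 30 bases, 5′ to 3′ on the strand that carries the motif, with the best match to the 12-bp CTCF core in capitals. They were taken from the 12 sites of highest mean rank in the replicates and from the strongest sites whose core has no mismatch, and they are shown because they span 0, 1 and 2 mismatches to the core.
Lsm11, 0 mismatches, chr11:45945018-45945047, plus strand: cagccgcggCCACCAGGGGGCagcatagat
Src, 0 mismatches, chr2:157457612-157457641, minus strand: cacacagcgCCAGCAGAGGGCgcaggggcg
Agfg1, 0 mismatches, chr1:82839369-82839398, plus strand: tcctcccggCCAGCAGAGGGCgccagcctg
Ext2, 0 mismatches, chr2:93822584-93822613, minus strand: tcctcctgtCCAGCAGGGGGCgcggcgcta
Scap, 0 mismatches, chr9:110333244-110333273, plus strand: ggcaggggaCCACCAGGGGGCgaacccgag
Adprhl2, 1 mismatch, chr4:126321739-126321768, minus strand: gactccgggCCACAAGGGGGCgctgtgggg
Nipsnap2, 1 mismatch, chr5:129724954-129724983, minus strand: tcagtgctgCCGCCAGGGGGCgtgccaaga
Cdk9, 1 mismatch, chr2:32713654-32713683, plus strand: aactgacggCCGCCAGGGGGCgcggcgaca
Piezo1, 1 mismatch, chr8:122551705-122551734, minus strand: ctctgacagCCCCCAGAGGGCgctgcgcca
Ppard, 2 mismatches, chr17:28232540-28232569, plus strand: ccacgtctgACTGCAGAGGGCgctgcagac
Trim65, 2 mismatches, chr11:116130608-116130637, minus strand: ctgcagccaCCACGAGCGGGCgctgctgga
Every one of these 11 runs holds at least 1 CpG in the core or within 4 bp of it.

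Longer windows show the motif in its promoter. Each is 121 bases around the summit, read on the strand of the gene, and touches no annotated exon. Capitals mark the best match to the core on either strand, where it has at most 1 mismatch. Other matches to the core are left in lower case, as in the window of Lsm11. Capitals also mark the GC box GGGCGG or its reverse complement CCGCCC, the element bound by Sp1. The 4 windows are the site of highest mean rank, 2 sites with a core without mismatches on opposite strands relative to the gene, and a strong site with no core even at 2 mismatches.
Adprhl2, chr4:126321723-126321843, minus strand: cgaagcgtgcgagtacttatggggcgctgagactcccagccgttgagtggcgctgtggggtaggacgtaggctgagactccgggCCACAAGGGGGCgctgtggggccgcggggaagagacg
Lsm11, chr11:45944975-45945095, minus strand: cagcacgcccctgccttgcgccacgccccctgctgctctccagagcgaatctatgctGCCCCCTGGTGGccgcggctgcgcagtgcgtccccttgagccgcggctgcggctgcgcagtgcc
Agfg1, chr1:82839321-82839441, plus strand: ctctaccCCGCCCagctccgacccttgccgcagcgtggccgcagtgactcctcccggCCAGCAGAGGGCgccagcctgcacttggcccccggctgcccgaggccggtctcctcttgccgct
Ing5, chr1:93803778-93803898, plus strand: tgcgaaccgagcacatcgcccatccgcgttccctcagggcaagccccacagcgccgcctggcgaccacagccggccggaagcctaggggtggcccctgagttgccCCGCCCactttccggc
The windows hold between 11 and 12 CpG dinucleotides each. The core of Lsm11 points against the gene and that of Agfg1 along it.

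The highest-ranked site was that of Adprhl2, an ADP-ribosylserine hydrolase (chr4:126321589-126321980, summit 80 bp upstream of the TSS). Its signal was 287.3 in replicate 1 and 319.1 in replicate 2. The site of Nipsnap2, a mitochondrial protein, followed with 274.7 and 315.5 (chr5:129724811-129725166, 70 bp upstream). These 2 sites took ranks 6 and 10 among all 64732 sites by signal in replicate 2 but ranks 49 and 88 in replicate 1. The next sites had nearly equal values in both replicates. Trim65, a ubiquitin ligase, had 257.8 in replicate 1 and 268.3 in replicate 2, at a summit in its coding sequence (chr11:116130498-116130826, 459 bp downstream). Lsm11, a subunit of the particle that processes histone mRNAs, had 262.1 and 262.5 (chr11:45944854-45945184, 100 bp upstream). Ppard, a nuclear receptor for fatty acids, had 263.6 and 257.0 (chr17:28232423-28232708, 136 bp upstream). Of the 12 highest-ranked sites, those of the transcription elongation kinase Cdk9 (259.0 in replicate 1 and 261.0 in replicate 2) and the mechanosensitive channel Piezo1 (254.7 and 261.1) lay farther upstream, at 884 and 364 bp. Ppif, a mitochondrial cyclophilin, had 265.8 and 253.4. The tyrosine kinase Src was bound in an intron, 532 bp downstream, with 254.9 and 253.4. Ankrd39, an ankyrin repeat protein, had 265.6 and 245.0, the chromodomain helicase Chd9 had 257.7 and 245.3, and the zinc transporter Slc39a13 had 247.8 and 256.0. Within these 12 sites the ratio of replicate 1 to replicate 2 lay between 0.871 and 1.08.

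Strong peaks were present with a complete core and without one. The 6 strongest sites whose core had no mismatch were at Lsm11, Src, Agfg1, Ext2, Ccbe1 and Scap. Agfg1, an adaptor of vesicle traffic, had 233.3 in replicate 1 and 224.2 in replicate 2. Ext2, a polymerase of heparan sulfate, had 218.5 and 235.9. Ccbe1, which is required for lymphatic vessels, had 227.8 and 219.8, and Scap, the escort of the SREBP factors, had 241.6 and 206.8. The 6 strongest sites with no core at up to 2 mismatches had values in nearly the same range. Atad2b, a bromodomain ATPase, had 219.6 in replicate 1 and 226.3 in replicate 2. Ing5, a PHD finger protein of histone acetyltransferase complexes, had 209.8 and 235.9. Mapk1ip1l had 210.4 and 226.2, and Lrrc24 had 229.5 and 205.7. Amz2, a metallopeptidase, had 214.3 and 213.4, and Ndufaf3, an assembly factor of complex I, had 221.5 and 196.5. The lowest value among all these sites, with and without a core, was the 196.5 of Ndufaf3 in replicate 2.

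Signal at the GC-rich sites was lower than in the other large classes of sites, in both replicates. The median was 27.7 in replicate 1 and 26.45 in replicate 2, against 35 and 32.3 at GC-poor sites and 43.2 and 39.8 outside promoters. Sites at promoters of 2 or more genes had medians of 28.9 and 26.8. In the pooled list the medians were 50.3 at GC-rich sites, 63.4 at GC-poor sites, 51.1 at promoters of 2 or more genes and 81.7 outside promoters. The difference between GC-rich and GC-poor sites was -0.33 on the log2 scale of the pooled signal. The classes overlapped widely. The middle 50% of GC-rich sites ran from 16.1 to 63.0 in replicate 1, against 17.7 to 96.6 at GC-poor sites, and the pooled signal of GC-rich sites ranged from 5.80 to 601.6, against 5.78 to 623.3. Of GC-rich sites, 12.8% were in the 25% of all sites with the highest pooled signal and 34.4% in the lowest, against 13.5% and 32.85% at promoters of 2 or more genes and 22.2% and 28.4% of GC-poor sites.

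**Figure D1:**
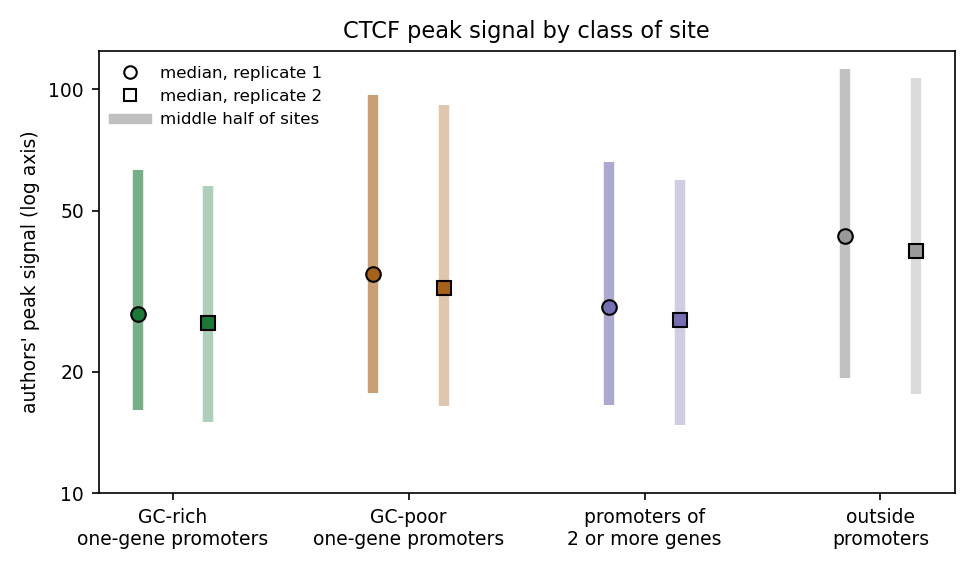
The authors' peak signal (log axis) in replicate 1 (circles) and replicate 2 (squares) for 4 classes of CTCF sites; symbols are medians over sites and bars span the middle 50% of sites. The medians of GC-rich one-gene promoter sites, 27.7 and 26.45, lie below those of GC-poor sites and of sites outside promoters in both replicates, while the bars overlap.

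The replicates differed more at GC-rich sites than at GC-poor sites or outside promoters, and about as much as at promoters of 2 or more genes. A peak within 100 bp was present in both replicates at 3271 of the 3574 sites (91.5%), was missing from replicate 1 at 155 and from replicate 2 at 164, and from both at 16. At the 3271 sites the median absolute log2 ratio of the replicates was 0.28, against 0.27 at promoters of 2 or more genes, 0.23 at GC-poor sites and 0.20 outside promoters. The size of this spread followed the signal. It was 0.09 in the highest of 4 signal classes of equal size over all sites and 0.52 in the lowest for GC-rich sites, against 0.09 and 0.51 for GC-poor sites and 0.09 and 0.46 outside promoters. Spearman's rho between the replicates over sites, which share their libraries, was 0.900 at GC-rich sites (3271 sites), 0.909 at promoters of 2 or more genes, 0.937 at GC-poor sites and 0.960 outside promoters. When each replicate's list was limited to as many top peaks as there are sites, 73.9% of GC-rich sites had a peak in both (72.4 to 75.3%), against 75.6% at promoters of 2 or more genes (72.7 to 78.3%), 80.1% of GC-poor sites and 84.7% of sites outside promoters. Of GC-rich sites, 79.85% were also in the conservative IDR list (78.5 to 81.1%), against 80.8% at promoters of 2 or more genes (78.0 to 83.2%), 84.25% of GC-poor sites and 88.3% of sites outside promoters. Among sites with a pooled signal in the upper 50%, the highest ratios of replicate 1 to replicate 2 were 2.20 at Cdk19, a kinase of the Mediator complex, 2.13 at Kl, the hormone co-receptor Klotho, and 2.02 at Hyou1, a chaperone of the endoplasmic reticulum. The lowest were 0.499 at Spred2, an inhibitor of Ras signalling, 0.548 at Dazl, an RNA-binding protein of germ cells, and 0.597 at Crip2, a LIM domain protein.

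Few of the GC-rich sites held the CTCF core. With 1 mismatch allowed and at most 50 bp between it and the summit, the core was found at 466 of 3574 sites (13.0%, 12 to 14.2%), against 48.3% of all sites. The share was 26.25% at GC-poor sites (25.2 to 27.4%), 12.3% at promoters of 2 or more genes and 53.7% outside promoters. The same search in windows 1000 bp to each side of the GC-rich sites found the core in 1.09% (0.875 to 1.36%), and at gene starts with a GC content of at least 60% but no CTCF site in 0.820% (0.531 to 1.26%). The core was therefore about as rare at GC-rich starts without a site as in the flanks. With no mismatch allowed, 1.82% of GC-rich sites, 5.45% of GC-poor sites and 14.0% of sites outside promoters held the core. With 2 allowed, the shares were 44.0%, 56.1% and 81.1%, while 9.64% of the flank windows of GC-rich sites also matched. These flank windows had a median GC content of 49.0% (mean of both sides), against 64.2% within 500 bp of the summits. They were thus not matched in GC content, and no share at GC-rich starts is given with 2 mismatches.

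GC-rich sites with the core had the higher signal. Their median was 77.7 in replicate 1 and 77.9 in replicate 2, against 25.5 and 23.5 at GC-rich sites without it. The signal followed the number of mismatches. Pooled medians were 267.5 at the 65 sites with no mismatch, 135.9 at the 401 with 1, 59.8 at the 1106 with 2 and 40.2 at the 2002 with 3 or more. The share of cores was lower than at GC-poor sites and outside promoters at every level of signal, and within the intervals of promoters of 2 or more genes. From the highest to the lowest of the 4 signal classes, 40.4%, 17.2%, 8.74% and 3.91% of GC-rich sites held the core, against 34.2%, 15.8%, 8.39% and 4.45% at promoters of 2 or more genes. The shares were 52.9%, 29.4%, 18.6% and 10.3% at GC-poor sites and 73.05%, 58.3%, 46.1% and 35.1% outside promoters. The intervals of GC-rich and GC-poor sites did not overlap in any signal class, while those of GC-rich sites and promoters of 2 or more genes overlapped in each. In the highest class the intervals were 36.0 to 44.9% at GC-rich and 50.2 to 55.5% at GC-poor sites. CpG in and around the core is not independent of the rule, which asked for G and C in a window that holds the core. As a description, a CpG lay in the core or within 4 bp of it at 86.9% of cores of GC-rich sites (83.5 to 89.7%). The share was 74.3% at promoters of 2 or more genes (65.4 to 81.6%), 53.2% at GC-poor sites and 34.8% outside promoters. The mean number was 1.64 per core at GC-rich sites, 1.18 at promoters of 2 or more genes, 0.757 at GC-poor sites and 0.401 outside promoters.

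**Figure D2:**
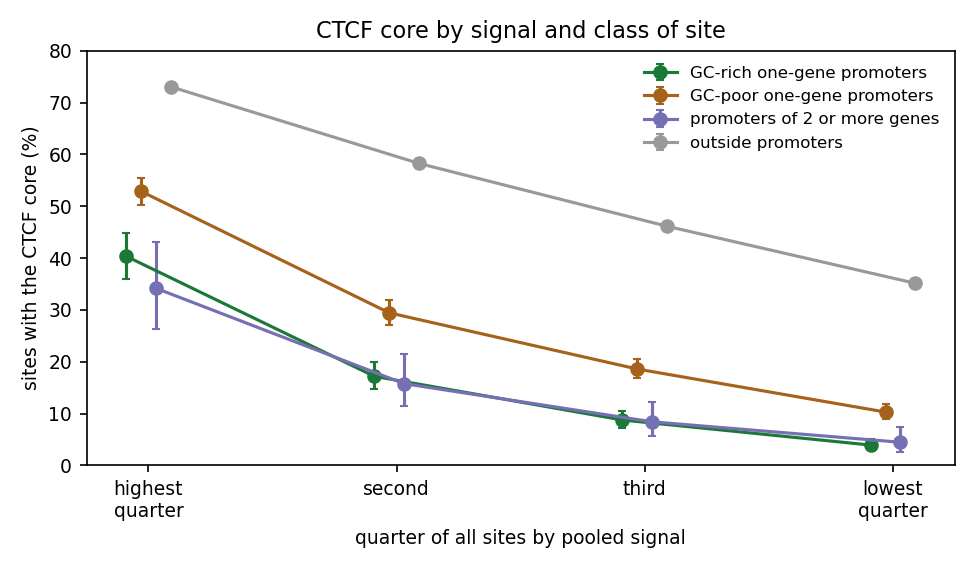
Share of sites with the CTCF core (1 mismatch allowed, at most 50 bp from the summit) by signal class, from the highest to the lowest of 4 classes of equal size over all sites; points are shares and bars 95% Wilson intervals. GC-rich one-gene promoter sites run from 40.4% to 3.91% and lie below GC-poor sites and sites outside promoters in each class.

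The summits clustered at the TSS. The median distance to the nearest TSS was 166 bp at GC-rich sites, against 268 bp at GC-poor sites, and 56% of GC-rich sites lay within 200 bp, against 43.25% of GC-poor sites. Position is not independent of the rule, which set a limit of 1000 bp and divided the sites by GC content. At GC-poor sites the median GC content was 49.15% at 500 to 1000 bp upstream, 54.85% within 50 bp and 52.85% at 500 to 1000 bp downstream. GC-rich sites lay downstream of the TSS in 54.4% of cases (52.8 to 56.1%), against 40.7% of GC-poor sites (39.4 to 41.9%). The share of GC-rich sites was 42.6% among those in the upper 50% of signal and 50.6% with TSSs within 500 bp. Of the 466 GC-rich sites with the core, 42.7% lay downstream (38.3 to 47.2%), against 56.2% of the 3108 without it (54.4 to 57.9%). Signal varied with position. It was highest 50 to 200 bp upstream, with medians of 40.6 in replicate 1 and 38.5 in replicate 2 over 731 sites, and lowest 50 to 200 bp downstream, with 21.3 and 19.7 over 557 sites. The core was found in 18.1% of the upstream group and 6.82% of the downstream one, and their intervals (15.4 to 21% and 5.01 to 9.23%) did not overlap. GC-poor sites varied alike, with medians of 52.1 and 47.6 upstream and 25.6 and 24.1 downstream in the same bins.

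**Figure D3:**
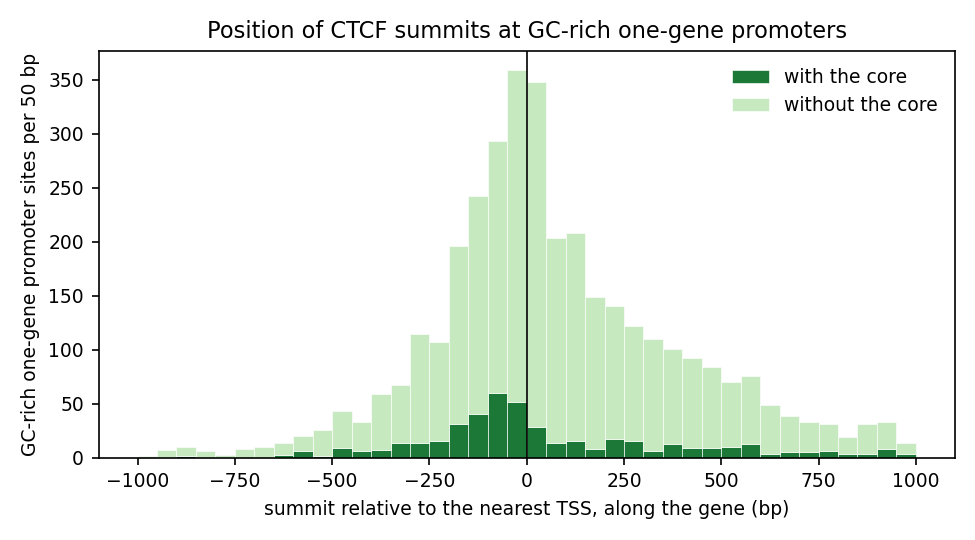
Number of GC-rich one-gene promoter sites per 50 bp by position of the summit relative to the nearest TSS along the gene (negative values upstream), with sites that hold the CTCF core in dark green and the others stacked in light green. The counts peak on both sides of the TSS, and the dark bars are highest upstream of it.

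Most cores upstream of the TSS pointed along the gene. Of the 466 cores, 11 had equal matches on both strands, and 262 of the other 455 lay on the strand of the gene (57.6%, 53.0 to 62.0%). Upstream or up to 50 bp downstream of the TSS the share was 65.2% (189 of 290, 59.5 to 70.4%), and farther downstream 44.2% (73 of 165, 36.9 to 51.9%). These intervals did not overlap. The share upstream was 66.8% in the conservative list, 64.4% among the highest peaks of replicate 1 and 65.7% among those of replicate 2. Cores without mismatches were on the strand of the gene in 47 of 65 cases (72.3%, 60.4 to 81.7%). The share was 61.9% in the upper 50% of signal (56.4 to 67.1%) and 47.9% in the lower (39.75 to 56.1%). At GC-poor sites 55.1% of cores were on the strand of the gene (52.6 to 57.5%), with 57.8% upstream and 49.1% farther downstream. Between 200 and 500 bp upstream the share was 68.2% at GC-rich sites (56.2 to 78.2%, 66 cores) and 51.8% at GC-poor sites (45.2 to 58.4%), with overlapping intervals. The classes were closer in the other upstream bins. At 50 to 200 bp upstream the share was 64.8% at GC-rich sites (56.25 to 72.6%) and 66.1% at GC-poor sites (60.3 to 71.4%). Within 50 bp of the TSS it was 65% and 63.0%, and at 500 to 1000 bp upstream 56.25% and 53.5%. The difference between the classes was not tested.

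**Figure D4:**
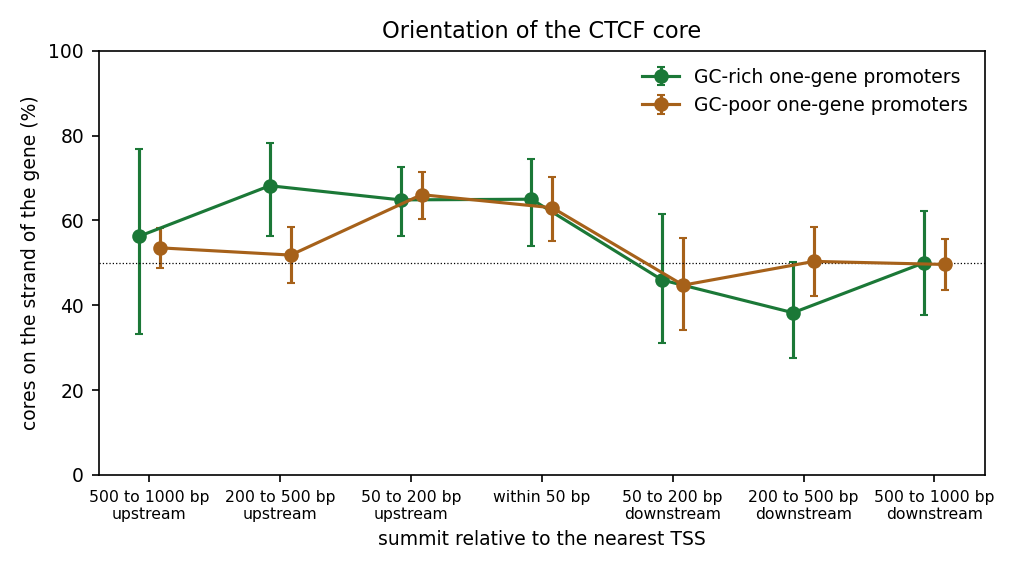
Share of CTCF cores on the strand of the gene by position of the summit relative to the nearest TSS at GC-rich (green) and GC-poor (brown) one-gene promoter sites; bars are 95% Wilson intervals and the dotted line marks 50%. Shares of GC-rich sites are above the line in the 4 bins from upstream to within 50 bp of the TSS and at or below it downstream.

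GC-rich sites had the CpG content of islands. Their median ratio of observed to expected CpG was 0.792 within 500 bp, against 0.533 at GC-poor sites, 0.741 at promoters of 2 or more genes and 0.212 outside promoters. Among GC-rich sites the signal was lower where GC content was higher. In replicate 1 the median was 30.03, 26.2, 23.6 and 22.1 at 60 to 65%, 65 to 70%, 70 to 75% and at least 75% GC. Replicate 2 had 28.4, 25.5, 21.5 and 21.4. The core was found at 14.9%, 11.1%, 9.33% and 10.45% of the sites, and the last bin held 67 sites. The 3 sites with the highest GC content were at Ranbp9 (82.4%, with 34.3 in replicate 1 and 37.6 in replicate 2), at the cohesin regulator Pds5a (80.5%, 44.5 and 32.2) and at the histone acetyltransferase Kat6a (79.7%, 6.21 and 6.69). The threshold of 60% cut through a continuous range. Between 60 and 61%, 471 sites had median signals of 29.96 in replicate 1 and 29.05 in replicate 2, against 30.4 and 30 at 483 sites between 59 and 60%. The strongest 3 of the sites at the first GC value above the threshold, 60.04%, were at the RNA helicase Ddx46 (202.9 and 187.7), Garem1 (197.8 and 183.3) and the RNA polymerase III subunit Polr3e (192.2 and 188.6). The strongest 3 at the last value below it, 59.94%, were at the chromatin regulator Epc1 (194.8 and 227.7), Them6 (200 and 213.3) and the actin-binding protein Coro2a (182.7 and 161.2).

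In the annotation of their own gene, 29.97% of GC-rich summits lay upstream, 28.5% in a UTR, 25.6% in an intron, 13.85% in coding sequence and 2.15% in an exon of a non-coding transcript. Sites upstream of the gene had median signals of 40.8 in replicate 1 and 37.4 in replicate 2, and the other 4 positions had 23.4 to 28.4 and 22.7 to 28.6. The site was within 1000 bp of the outermost 5′ end of its gene in 85.3% of cases, and 13.8% lay within 1000 bp of the start of a long non-coding RNA. Another CTCF site was present within 500 bp at 14.7% of GC-rich sites (13.6 to 15.9%), against 12.04% at promoters of 2 or more genes (10.1 to 14.3%), 8.56% of GC-poor sites and 2.77% of sites outside promoters, and the median distance to the nearest was 1976 bp, against 2841, 3283 and 6415 bp. Sites this close can share reads.

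Most genes had 1 such site. Of 3052 genes, 2575 had 1, 435 had 2 and 42 had 3 or more. Kat6b, a histone acetyltransferase, had 5 sites near several TSSs of its 5′ region. Along the chromosome, the first had 28.4 in replicate 1 and 24.4 in replicate 2, and the second had 27.0 and 18.6. The third had no peak in replicate 1 and 8.81 in replicate 2, the fourth had 30.2 in replicate 1 and no peak in replicate 2, and the fifth had 5.69 and 20.4. The peaks of the second and the third overlap (chr14:21500032-21500311 and chr14:21500242-21500521), as do those of the fourth and the fifth (chr14:21500863-21501142 and chr14:21501069-21501348), so the 5 sites are not independent. Nr3c1, the glucocorticoid receptor, needed for maturation of the lung before birth, had 4 sites, of which 2 overlap. One of them had 79.9 in replicate 1 and 89.9 in replicate 2, and the other 3 had at most 9.95 in replicate 2. In replicate 1 a peak was present at 1 of those 3, with 10.5. Chd9 had 3 sites, and was the gene with the strongest site among those with 3. The 3 sites had 257.7, 79.2 and 36.4 in replicate 1 and 245.3, 85.3 and 19.7 in replicate 2.

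Motifs of other promoter factors were counted on both strands within 50 bp of the summit. The GC box GGGCGG was in 34.97% of GC-rich sites (33.4 to 36.55%), against 15.4% of GC-poor sites and 3.31% of sites outside promoters. This contrast is not independent of the rule, which asked for G and C around the summit, the only bases of the GC box. In windows of the same length at gene starts it was in 28.4% of all starts and in 55.6% of GC-rich ones. It was about equally frequent with the CTCF core (36.7%) and without it (34.7%). The ETS core CCGGAA was in 5.54% of GC-rich sites and 5.30% of GC-poor sites, against 10.2% of all starts. The CCAAT box was in 5.26%, 9.84% and 14.2%, and the cAMP response element TGACG was in 7.97%, 8.09% and 11.7%. The E box CACGTG was in 2.63%, 2.87% and 3.29%, and the YY1 core AANATGGC in 1.54%, 1.86% and 3.17%. The NRF1 site GCATGCGC was in 0.811%, 1.06% and 1.82%, and the TATA box TATAAA in 0.364%, 1.63% and 5.31%. At GC-rich starts the same motifs were in 11.7% (ETS), 11.7% (CCAAT), 16.2% (TGACG), 4.46% (E box), 4.18% (YY1), 2.33% (NRF1) and 1.77% (TATA). Sites at promoters of 2 or more genes had 23.1% (GC box), 10.9% (ETS), 8.66% (CCAAT) and 11.7% (TGACG). They had 3.26% (E box), 2.25% (YY1), 1.80% (NRF1) and 1.01% (TATA). The windows at summits and at starts differ in position, and a match of letters is not a bound factor.

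Of all 21646 protein-coding genes, 14.1% had a GC-rich one-gene promoter site, and 39.8% had a CTCF site of any class within 1000 bp of a TSS. The share with any site grew with GC content within 500 bp of the outermost 5′ end. It was 2.30% under 40%, 18.4% at 40 to 50%, 36.4% at 50 to 55%, 50.95% at 55 to 60%, 59.4% at 60 to 65%, 64.2% at 65 to 70% and 65.35% at 70% and above. Among the 6384 genes with a GC-rich start (at least 60%), 61.8% had a site of any class and 37.1% a GC-rich one-gene promoter site. The remaining 2440 GC-rich starts had no site in the list.

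Lists of genes by role differed widely in how many members had a GC-rich one-gene promoter site. They also differed in the share of GC-rich starts, and the 2 shares did not go together in every list. Of the 31 Polycomb genes, whose products repress genes at unmethylated CpG islands, 14 had such a site (45.2%, 29.2 to 62.2%), against 14.1% of all genes, and 23 had a GC-rich start. Of these 23, 12 had the site, against 37.1% of all genes with a GC-rich start. The strongest were at Pcgf2 (107.9 in replicate 1 and 88.6 in replicate 2) and Phc2 (68.0 and 88.55), subunits of repressive complex 1. Of 35 ligands, receptors and effectors of TGF-beta and BMP signalling, 13 had a site (37.1%, 23.2 to 53.7%), and 24 had a GC-rich start. Bmp1, a protease that processes procollagen, had 136.0 and 133.2, and Tgfb1, the ligand, had 102.6 and 120.7. Of 41 Wnt ligands, receptors and effectors, 14 had a site (34.1%, 21.6 to 49.5%), led by the ligand Wnt1 (138.3 and 105.7) and the scaffold Axin1 (86.8 and 88.2). Of 19 writers, erasers and readers of DNA methylation, 7 had a site (36.8%, 19.15 to 59%), led by the methyltransferase Dnmt3a (174.6 and 163.1) and the demethylase Tet3 (47.1 and 38.0). Of 25 genes of cohesin, condensin and their regulators, 6 had a site (24.0%, 11.5 to 43.4%). Stag1, a cohesin subunit, had 202.3 and 205.7 at a core without mismatches, and Esco1, a cohesin acetyltransferase, had 175.9 and 175.6. Among genes with a GC-rich start, the site was present at 5 of 15 in the cohesin and condensin list (33.3%), against 37.1% of all such genes. The counts were 11 of 24 for TGF-beta and BMP signalling (45.8%), 13 of 28 for Wnt genes (46.4%) and 4 of 8 for DNA methylation genes (50%).

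Families of transcription factors were also set against the 14.1% of all genes. A site was present at 6 of 19 Sox genes (31.6%), 10 of 44 forkhead genes (22.7%), 3 of 15 T-box genes (20%), 44 of 391 Zfp zinc finger genes (11.25%) and 1 of 39 Hox genes (2.56%). A GC-rich start was present at 68.4% of Sox genes and 61.4% of forkhead genes, against 29.5% of all genes. Of the 27 forkhead genes with a GC-rich start, 10 had the site (37.0%), against 37.1% of all genes with a GC-rich start. Among them, Sox11 had 70.4 in replicate 1 and 83.4 in replicate 2, and Sox8 had 29.96 and 26.7. Foxd2 had 164.1 and 168.2, and Foxo6 had 171.4 and 156.8. Eomes, a T-box factor of early embryos, had 42.7 and 42.9. Zfp398 had 235.0 and 236.5, and Zfp786 had 238.7 and 229.5. The neighbours Zfp398 and Zfp786 carry their cores on opposite strands. Hoxd9, the Hox gene with a site, had 28 and 11.5, and 11 of the 39 Hox genes had a GC-rich start. Of 26 FGF ligands and receptors, 4 had a site (15.4%), led by Fgfr3 (42.6 and 32.3) and Fgf9 (23.0 and 26.5).

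Lists of basic cell functions were set against the 14.1% of all genes with a site of the GC-rich class and the 39.8% with a site of any class. Among 83 cytosolic ribosomal proteins, 8 had a GC-rich one-gene promoter site (9.64%, 4.96 to 17.9%) and 55 a site of any class, and 15 had a GC-rich start. Of these 15, 6 had a site of the class (40%), against 37.1% of all genes with a GC-rich start. Rpl26 had 215.9 in replicate 1 and 205.4 in replicate 2, and Rpl10a had 198.5 and 172.9. Among 78 mitochondrial ribosomal proteins, 3 (3.85%, 1.32 to 10.7%) had a site of the class and 41 of any class, led by Mrpl23 (157.5 and 163.3) and Mrpl4 (25.9 and 29.9). Among 77 subunits of the respiratory chain the counts were 2 (2.60%, 0.715 to 8.98%) and 39, with the complex I subunit Ndufa6 at 215.9 and 260.9 and the cytochrome oxidase subunit Cox5a at 22.7 and 12.5. Among 39 proteasome subunits they were 0 and 17, with an upper bound of 8.97% for the class. A site of the class was also present at 3 of 46 DNA replication genes (2.24 to 17.5%), 3 of 48 splicing factors (2.15 to 16.8%), 1 of 36 aminoacyl-tRNA synthetases and 11 of 54 translation initiation factors. The intervals of cytosolic ribosomal proteins, replication genes and splicing factors include 14.1%. So do those of the synthetases (2.78%, 0.492 to 14.17%) and the initiation factors (20.4%, 11.8 to 32.9%). The 2 strongest of each were Gins2 (14.7 and 18.5) and Mcm9 (19 and 10.6) for replication, Prpf38b (125.3 and 116.4) and Prpf4b (88.5 and 78.5) for splicing, and Eif1 (28.8 and 36.0) and Eif4a1 (33.1 and 30.6) for initiation. The synthetase was Gars, with 23.3 and 23.1. Among genes with a GC-rich start, the site was at 2 of 19 mitochondrial ribosomal (10.5%) and 2 of 15 respiratory chain genes (13.3%). It was at 2 of 17 splicing factors (11.8%), 1 of 9 synthetases (11.1%) and 0 of 5 proteasome subunits. The counts were 2 of 8 for replication genes (25%) and 8 of 24 for initiation factors (33.3%), against 37.1% of all such genes. Olfactory receptors, whose starts are GC-poor, had none among 1091 genes, and 9 had a site of any class.

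**Figure D5:**
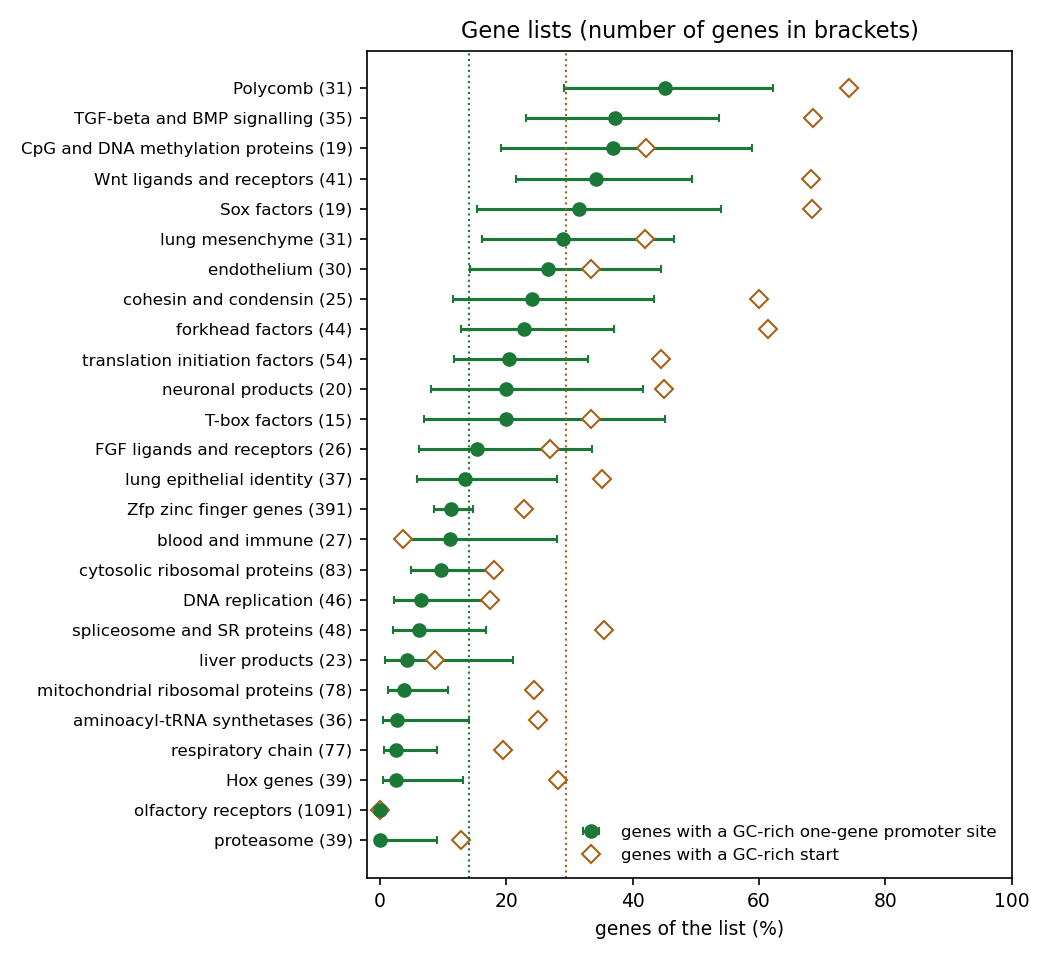
Share of genes in each list with a GC-rich one-gene promoter site (green points with 95% Wilson intervals) beside the share with a GC-rich start (open brown diamonds); dotted lines mark all protein-coding genes (14.1% and 29.5%). Polycomb and TGF-beta and BMP signalling are high in both shares. Splicing factors have a GC-rich start at 35.4% of genes and the site at 6.25%. Proteasome genes and olfactory receptors have no such site.

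Genes of the lung's own cell types were compared with the 14.1% of all genes that had a GC-rich one-gene promoter site and with the 29.5% that had a GC-rich start. Of 31 mesenchymal genes, 9 had such a site (29.0%, 16.1 to 46.6%), and 41.9% had a GC-rich start. Pdgfra, the receptor that marks fibroblast progenitors, had 147.2 in replicate 1 and 157.1 in replicate 2 at a core without mismatches, and the T-box factor Tbx3 had 141.1 and 134.3. Of 30 endothelial genes, 8 had a site (26.7%, 14.2 to 44.45%) and 33.3% a GC-rich start, led by the factor Klf4 (89.6 and 92.9) and the secreted vessel factor Egfl7 (72.4 and 83.5). Of 37 genes of epithelial identity, 5 had a site (13.5%, 5.91 to 28%), close to the share of all genes, and 35.1% had a GC-rich start. Cebpa, a transcription factor of alveolar epithelium, had 187.8 and 171.8, and Gata6, a factor of endoderm, had 50.65 and 70.7. For other lists of cell types and tissues the counts were 3 of 27 for blood and immune genes, 4 of 20 for neuronal and 1 of 23 for liver products. A GC-rich start was present at 3.70% of the blood and immune genes, 45% of the neuronal and 8.70% of the liver genes. The 3 blood and immune genes had weak sites, and the strongest was that of Gata2 with 19.7 and 15.4, followed by Runx1 with 10.1 and 16. The neuronal genes were led by the glutamate receptor subunit Grin2a (97.7 and 79.8) and the synaptic vesicle protein Syn1 (18.5 and 24.0), and the liver gene was the urea cycle enzyme Ass1 (65.45 and 63.2). The intervals of these lists all overlap one another.

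By chromosome, the sites followed the number of GC-rich starts. Per 1000 protein-coding genes the X chromosome had 80.2 such sites, against 112.6 to 222.7 on the 19 autosomes (median 170.5). Per 1000 genes with a GC-rich start it had 524.1, within the autosomal range of 494.8 to 659.4 (median 553.9). Of the genes of the X chromosome, 15.3% had a GC-rich start.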

How the data were processed

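ChIP-seq peaks of 2 replicates of newborn lung were used, in the mm10 assembly per the labels. The authors deposited a signal per peak, with no statement of its scaling. The −log10 of the q-value deposited by the authors was read but supports no result. The other deposited value used is the summit offset in bp from the peak start. Per the deposited descriptions, each replicate's list came from its alignments and 1 further file of unstated role, and the optimal and conservative IDR lists from replicate and pooled lists. Not given in the sources used here are the aligner, the IDR threshold and the peak caller with its settings. Sites are the peaks of the optimal list on chromosomes 1 to 19 and X (64732 of 64742 peaks). A site counts as in the conservative list where its coordinates and summit are identical there.

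Genes are those of GENCODE M21, counted by symbol, and sequence is GRCm38. The CTCF core was searched on both strands within 50 bp of the summit, and orientation was that of the strand with fewer mismatches. The position weight matrix used as an alternative spans 20 bp and was learned from 3478 cores outside promoters. The core search, the GC classes and the assignment to TSSs were tested on simulated sequence. Python 3.11.15, numpy 2.4.6, pandas 2.3.3 and SciPy 1.17.1 were used. Shares have 95% Wilson intervals.

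The sites and the 26 gene lists were chosen with earlier results of these data known. Named genes are the 12 sites of highest mean rank, the 6 strongest with no mismatch and the 6 with no core at 2 mismatches, the strongest 2 of each list, the 3 highest and 3 lowest replicate ratios, the 3 genes with most sites, the 3 of highest GC content, and the 3 on each side of the GC threshold. Predicted genes were skipped, and some sequences are not reported here.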

Additional observations from a re-analysis of the deposited data

Results flagged for a closer look

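Peaks of the pooled list that entered neither IDR list were not used above. At GC-rich promoters of single genes, and more than 1000 bp from any listed summit, there were 2724 of them, at 2130 genes, of which 1675 had no listed site. Their median signal was 10.1 (5.74 to 46.7). The CTCF core was within 50 bp of the summit at 71 of them (2.61%, 95% Wilson interval 2.07 to 3.28%), against 1.25% of their flank windows (0.986 to 1.58%), which is why they are named here.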

How the results depend on the processing

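The comparison of GC-rich with GC-poor sites kept its direction under all 11 alternatives, with differences in median log2 signal of -0.32 in the conservative list, -0.36 in the 50% of sites with the highest signal, -0.27 and -0.42 at GC thresholds of 55% and 65%, -0.31 with a GC window of 250 bp each side, -0.31 with sites within 500 bp of a stronger site dropped, and -0.30 to -0.32 with 1 replicate left out. The number of sites was 1271 in the 50% with the highest signal, 6017 and 1549 at thresholds of 55% and 65%, and 3568 to 3642 with 1 replicate left out. Their median log2 signal was 7.34 in the 50% with the highest signal, 5.52 at a threshold of 65%, and 4.58 to 4.75 with 1 replicate left out. At all sites the median signal was 40.8 in replicate 1 and 37.5 in replicate 2, and 76.2 in the pooled list. The share with the core was 13.9% in the conservative list, 25.5% in the 50% with the highest signal, 15% and 10.65% at thresholds of 55% and 65%, 12.7% with TSSs within 500 bp, and 13.6% with close sites dropped. It was 1.82% and 44.0% with 0 and 2 mismatches, 10.2% and 14.6% with the core within 25 and 100 bp, 12.1% with the position weight matrix, and 12.9 to 13.4% with 1 replicate left out. The share of cores on the strand of the gene stayed above 50% and was 59.3% in the conservative list, 61.9% in the 50% with the highest signal, 58.1% and 54.6% at thresholds of 55% and 65%, 58.5% with a GC window of 250 bp, 58.8% with TSSs within 500 bp, and 58.5% with 1 TSS per gene. It was 72.3% and 53.9% with 0 and 2 mismatches, 57% with the core within either 25 or 100 bp, and 56.9 to 57.4% with 1 replicate left out. At sites selected by the matrix it was 59.1%, with the strand still taken from the core search. The share of sites downstream of the TSS did not stay above 50%. It was 42.6% in the 50% with the highest signal, 50.7% and 58.0% at thresholds of 55% and 65%, 50.6% with TSSs within 500 bp, 62.7% with 1 TSS per gene, and 53.3 to 54.9% with 1 replicate left out. The share of genes with a GC-rich start that have a GC-rich one-gene promoter site was 34.2% in the conservative list, 15.3% in the 50% with the highest signal, 39.6% and 31.15% at thresholds of 55% and 65%, 35.5% with a GC window of 250 bp, 34.9% with TSSs within 500 bp, 36.0% with 1 TSS per gene, 36.6% with close sites dropped, and 37.1 to 37.6% with 1 replicate left out. The share of sites among the top peaks of both replicates was 82.3% in the conservative list, 99.8% in the 50% with the highest signal, 76.15% and 71.6% at thresholds of 55% and 65%, 76.6% with close sites dropped, and 70.2% with summits matched within 50 bp. The cause of these shifts was not tested. Neither that share nor the share in the conservative list was read from a single replicate's list, which matches itself and has coordinates of its own. No paired analysis was possible because there was 1 group. The lists carry no read counts, so no limit from depth could be computed.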
